A study of Mus musculus with 2 samples.

Results

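The cells described here were fibroblasts of mouse visceral adipose tissue (VAT) in which no transcript of Dpp4 or Pi16 was counted. They were chosen from their own counts. A droplet barcode was kept when it held at least 200 genes and no more than 6% mitochondrial transcripts, and it was taken when Dcn, Col3a1, Col1a2 and Clec3b together made up at least 0.5% of its unique molecular identifiers (UMIs, each standing for 1 captured transcript), with Ptprc at 0, Csf1r and Cldn5 at no more than 1 UMI each, and Dpp4 and Pi16 both at 0. The rule gave 194 cells of 8417 kept barcodes. Of these, 150 were among 3015 kept barcodes of calorically restricted (CR) mice and 44 were among 5402 of obese mice, and they are called Dpp4- Pi16- fibroblasts here. The minus sign means that no UMI was counted and does not show that the gene was silent.

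The series profiled live CD45+ cells sorted from perigonadal fat by droplet 3′ RNA sequencing, with 1 library per condition. CR mice were male C57BL/6J animals bought at 6 weeks of age, acclimated for 2 weeks, fed a diet with 60% of energy as fat and 0.3% cholesterol for 24 weeks with a weekly injection (5 mg/kg) of an antisense oligonucleotide that lowers the LDL receptor, and then held for 2 weeks at 70% of what they had eaten of that diet when fed freely. Obese mice had the same strain, diet and oligonucleotide without the restriction, so neither condition was a lean or a normolipidemic control. The GEO label of the CR library speaks of caloric restriction over the whole life, which differs from the study's methods. How many mice went into each library was not given in the sources used here, and with 1 library per condition no test of the diet was possible. Every interval given is an exact 95% interval (Poisson for levels, Clopper-Pearson for shares) that covers counting error only, and the limit beside a count of 0 stands for 3 counts.

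Fibroblasts of fat build the collagen scaffold around adipocytes, and part of them are preadipocytes, the committed precursors that turn on the nuclear receptor Pparg, take up fatty acids and fill with lipid. In mouse fat, Dpp4 and Pi16 mark an interstitial progenitor that lies upstream of these committed cells. Fibroblasts also answer cytokines and tissue stress with chemokines, interleukin-6 and matrix-remodelling enzymes, and in obese fat they lay down additional matrix.

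Of all kept barcodes, 4.98% (4.23 to 5.81) were Dpp4- Pi16- fibroblasts in CR mice and 0.815% (0.592 to 1.09) in obese mice. The cells lacked Ptprc by the rule but came out of a CD45+ sort, so how many fibroblasts a fat pad held and how many passed the gate cannot be told apart. Among all fibroblasts that met the rule apart from its last clause, 150 of 263 (57.0%) in CR mice and 44 of 92 (47.8%) in obese mice had no Dpp4 or Pi16 UMI. Depth was close but not equal, with a median of 5698 UMIs per cell (2073 to 16957) in CR mice and 4568 (2827 to 11880) in obese mice, and 886387 and 233585 UMIs in all in CR and obese mice. The 4 matrix genes of the rule took a median of 3.21% of a cell's UMIs in CR mice and 2.89% in obese mice. The 3 lowest cells inside the limit held 0.662%, 0.665% and 0.797% in CR mice and 0.506%, 0.541% and 0.583% in obese mice, while the highest barcode outside it held 0.419% in CR mice and 0.0655% in obese mice. Another 42 CR barcodes and 1 obese barcode failed only the mitochondrial limit. The libraries shared 28 barcode sequences, and no barcode was a Dpp4- Pi16- fibroblast in both.

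Markers that the rule did not use fitted the label fibroblast. Lum, a proteoglycan of the collagen network, was counted in 146 of 150 CR cells and in 44 of 44 obese cells. Pdgfra, the receptor that marks adipose stromal precursors, was counted in 111 of 150 CR cells and in 27 of 44 obese cells. A list of 17 fibroblast markers includes genes of the rule, among them Dcn, so its counts were partly set by the choice of cells. All 17 were detected in both libraries, and no cell held fewer than 60 UMIs of that list in CR mice or fewer than 47 in obese mice. Products of mature adipocytes were near 0. The 10 genes of that list summed to 8 UMIs over the CR cells and 3 over the obese cells, and the hormone gene Lep and the complement protease gene Cfd were at 0 in both libraries.

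A few cells stood apart and carried single genes. In obese mice, the cell with the third lowest matrix share held 521 UMIs of the macrophage, pan-leukocyte, MHC class II and T cell lists among its 3090 UMIs, including 191 of the 390 Cd74 UMIs and 77 of the 172 Lyz2 UMIs. In CR mice, 1 cell with a matrix share of 0.941% held 510 such UMIs, including 112 of 516 Cd74 UMIs. Another CR cell held 298 mesothelial UMIs, of which 240 were Slpi, and the CR cell with the lowest matrix share held 182 pericyte and smooth muscle UMIs, of which 120 were Acta2. Other cells carried fewer such transcripts, but those of leukocytes were widespread. At least 5 UMIs of the macrophage list were counted in 111 of 150 CR cells and in 28 of 44 obese cells. The median was 6 UMIs of the macrophage list per cell in CR mice and 6 in obese mice, the median of the mesothelial list was 1 UMI in both, and the median of the pericyte list was 0 in both. At least 25% of a gene's UMIs lay in 1 cell for 11 of the named genes in CR mice and for 24 of them in obese mice, where fewer cells were captured.

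Levels were compared as CPM, a gene's share of the summed UMIs scaled to a fixed total (counts per 1000000 UMIs), and the change as a log2 ratio of CR over obese with 5 CPM added to each side. Of 3269 genes with at least 20 UMIs over both libraries and at least 50 CPM in one of them, 82 (2.51%) were at least 2-fold higher in CR mice with a counting interval above 0, and 92 (2.81%) were at least 2-fold lower with an interval below 0. These 2 shares are the background for each list's count of called genes below. Over the 3269 genes, 1412 ratios were above 0 and 1857 below. Reaching 50 CPM in 1 library was enough, so a gene could enter through the library where its level was high. Genes called higher that reached 50 CPM only in CR mice include Slpi, Il6, Adamts4, Has1, Fcgr4, C7, Sfrp2, Igfbp5 and Cfb. Genes called lower that reached it only in obese mice include Il34 and Iigp1. The median of all measured genes was -0.07. Scaling with TMM factors moved that median to 0.06 and the counts to 111 higher and 58 lower. When each gene's highest cell was left out of each library, an alternative chosen after the data were seen, 112 genes were higher in CR mice and 36 were lower. They included 75 of the 82 and 33 of the 92, so most of the lower calls were lost once 1 cell per gene was removed. When cells with at least 5 leukocyte UMIs were left out, which kept 29 CR and 11 obese cells, 16 of the 82 and 4 of the 92 were called. Leaving out the highest cell removes 1 cell of 150 in CR mice and 1 of 44 in obese mice and so moves ratios upward.

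Among the adipogenic genes, the fatty acid carrier Fabp4 and the master regulator Pparg had log2 ratios near 0 whose sign depended on the processing, whereas the lipase gene Lpl and the lipoprotein gene Apoe were higher in CR mice by less than 2-fold. Fabp4 averaged 2109.7 CPM (2015 to 2208) in CR mice and 2166 CPM (1982 to 2363) in obese mice, a log2 ratio of -0.04 that was above 0 under 8 of 15 alternatives. In obese mice 195 of the 506 Fabp4 UMIs came from 1 cell, and the log2 ratio was 0.55 without the highest cells. Lpl, which frees fatty acids from circulating lipoproteins, averaged 2499 CPM (2396 to 2605) in CR mice and 1777 CPM (1609.8 to 1956) in obese mice, a log2 ratio of 0.49 (0.34 to 0.65). Pparg was sparse, with 25 UMIs in 17 CR cells and 7 UMIs in 7 obese cells, or 28.2 CPM in CR mice and 30.0 CPM in obese mice, and the interval of its log2 ratio ran from -1.34 to 1.37.

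Single cells were also compared at equal depth. After 1500 UMIs were drawn from each cell, which left out none, at least 1 Lpl UMI was found in 123 of 150 CR cells (82.0%) and 34 of 44 obese cells (77.3%), with a median of 3 UMIs in CR mice and 2 in obese mice. Without the draw, Lpl was counted in 141 CR cells and 43 obese cells. Fabp4 was found in 118 CR cells (78.7%, 71.2 to 84.9) and 25 obese cells (56.8%, 41.0 to 71.7), a difference that the summed level did not show, and the log2 ratio of the drawn UMIs was 0.13. Free RNA in the droplets included Fabp4. T cell barcodes, which should lack the gene and had a median of 2665 UMIs in CR mice and 3485 in obese mice, held a Fabp4 UMI in 65.0% of CR and 12.1% of obese barcodes at the same depth, against 11.4% and 12.9% for Lpl. Summed over T cell barcodes, Fabp4 was at 833 CPM in CR mice and 126 CPM in obese mice, and its level in endothelial barcodes, of which CR mice gave 178 and obese mice 18, was 50252 CPM in CR mice. The share of Fabp4 positive fibroblasts in CR mice can therefore not be read as expression alone. The same holds for the summed level of Fabp4 and its log2 ratio, because the T cell level differed between the libraries.

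**Figure D1:**
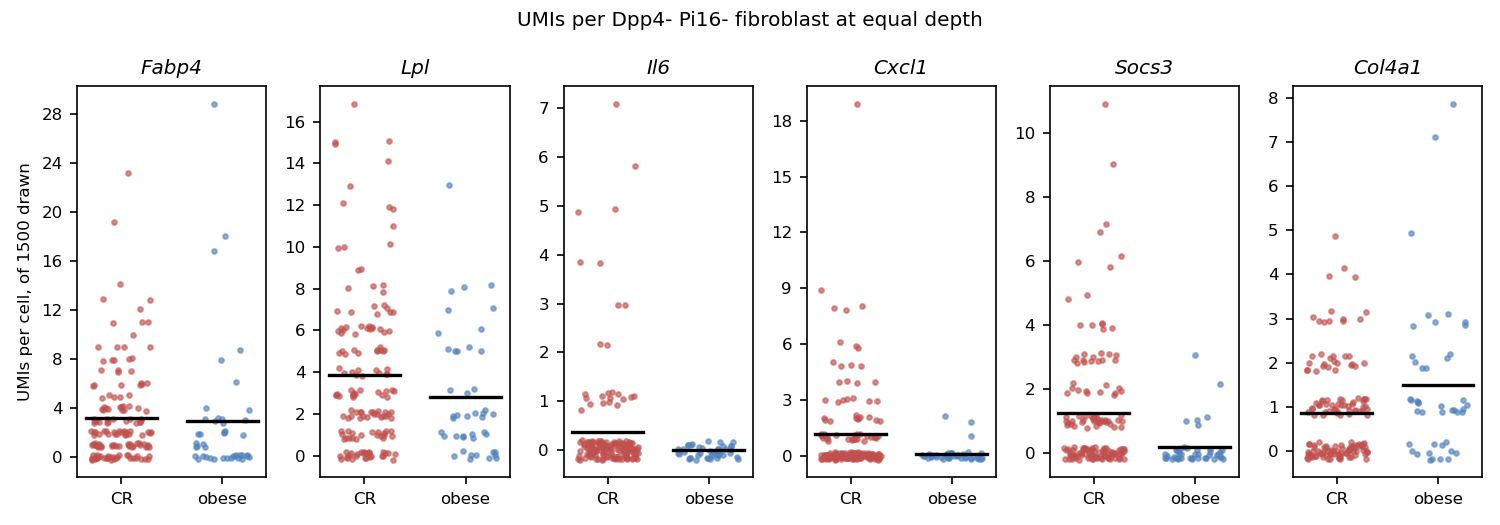
UMIs per Dpp4- Pi16- fibroblast after 1500 UMIs were drawn from each cell, for 150 CR cells (left) and 44 obese cells (right) in each panel. Each point is a cell, moved slightly sideways and up or down so that equal counts can be seen, and the bar is the mean. Fabp4 had a mean of 3.24 UMIs in CR mice and 2.95 in obese mice, Lpl had a mean of 3.84 in CR mice and 2.82 in obese mice, Il6 was found in 25 CR cells and no obese cell, and Col4a1 had a mean of 0.847 UMIs in CR mice and 1.50 in obese mice.

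The wider adipogenic lists held few genes past 2-fold. None of the 6 measured adipogenic regulators and none of the 13 measured genes of lipid uptake and storage was called in either direction, beside a background of 2.51% called higher and 2.81% called lower. The regulators had a median log2 ratio of 0.36. The early adipogenic factor Cebpb was at 322 CPM in CR mice and 235 CPM in obese mice, and the glucocorticoid target Klf9 was at 596 CPM in CR mice and 458 CPM in obese mice. Ebf1, a transcription factor of early adipocyte commitment, was at 457 CPM in CR mice and 569 CPM in obese mice. Apoe averaged 4852 CPM (4708 to 4999.5) in CR mice and 2556 CPM (2355 to 2769) in obese mice, a log2 ratio of 0.92 (0.80 to 1.05). The lipid droplet coat gene Plin2 was at 591 CPM in CR mice and 398 CPM in obese mice, while the fatty acid transporter Cd36 was at 156 CPM in CR mice and 158 CPM in obese mice. Angptl4, an inhibitor of lipoprotein lipase, was at 704 CPM in CR mice and 873 CPM in obese mice. The 54 genes of both lists summed to 13977 CPM in CR mice and 11041 CPM in obese mice, a log2 ratio of 0.34 (0.28 to 0.40). Most of the difference between these sums was Apoe, at 4852 CPM in CR mice and 2556 CPM in obese mice, so it does not describe the lists as a whole. The sums moved further in T cell barcodes. The genes of lipid uptake and storage were there at 2618 CPM in CR mice and 1504 CPM in obese mice (log2 ratio 0.80, against 0.37 in the fibroblasts), and the regulators had a log2 ratio of 0.62, against 0.15 in the fibroblasts. Most of the T cell difference in lipid uptake and storage was Fabp4, whose log2 ratio in the fibroblasts was -0.04. What part free RNA had in the fibroblast sum was not tested. Among 16 measured brakes on adipogenesis, 2 were higher in CR mice and 2 were lower. The nuclear receptor Nr4a1 (log2 ratio 1.02) and the WNT modulator Sfrp2 (1.98, from 58 CR and 3 obese UMIs) were the higher. Wisp2 (-1.40) and the insulin-regulated factor Foxo1 (-1.06) were the lower, with Wisp2 at -0.70 without the highest cells. A place in this list does not show how a gene acts in these cells.

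**Figure D2:**
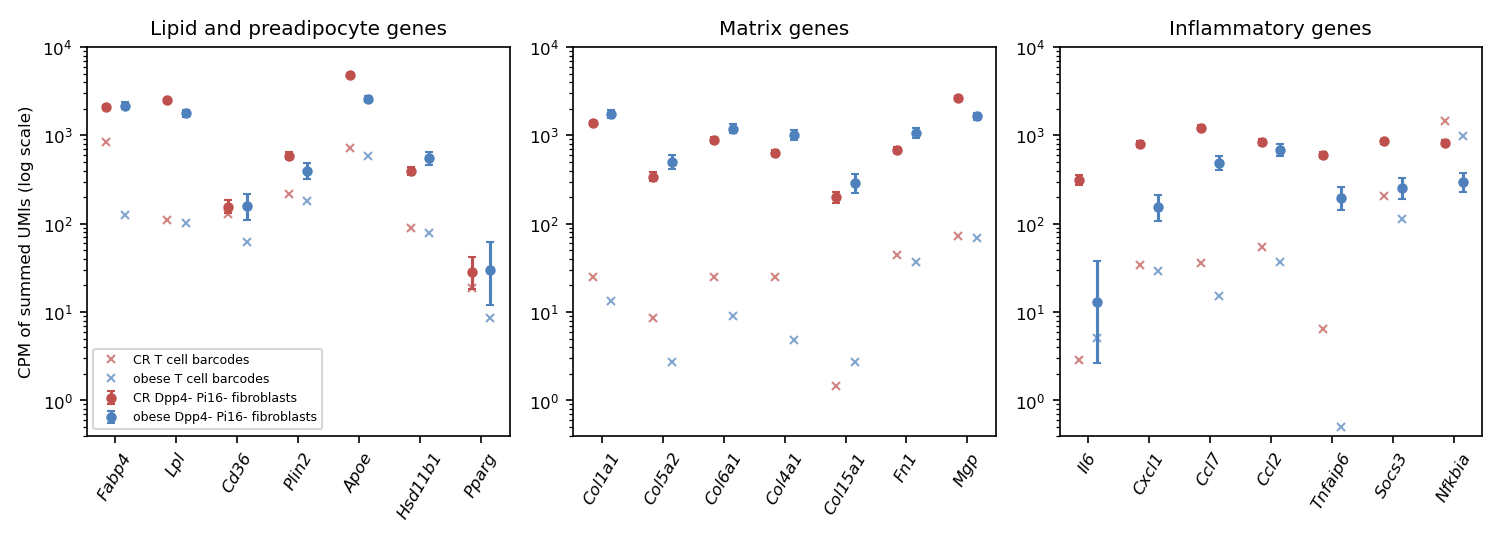
Levels in Dpp4- Pi16- fibroblasts (circles, with exact 95% Poisson intervals) and in T cell barcodes (crosses), in CPM of summed UMIs on a log scale, with CR (red) left of obese (blue) for each gene. Values of 0 are drawn at 0.5. Il6, Cxcl1, Socs3 and Tnfaip6 were at least 2-fold higher in CR mice, Lpl and Apoe lay above and the collagen genes below their obese levels by less than 2-fold, and Fabp4 and Pparg had log2 ratios of -0.04 and -0.07.

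No collagen gene passed 2-fold, and most had a lower level in CR mice. All 6 measured fibrillar collagen genes had a log2 ratio below 0, with a median of -0.53 beside -0.07 over all measured genes, and so did 5 of 6 other collagen genes (median -0.51) and 13 of 14 basement membrane genes (median -0.45). The rule used Col3a1 and Col1a2, and their values are therefore descriptions of the choice. Outside the rule, Col1a1, a chain of type I collagen, averaged 1391 CPM (1314 to 1471) in CR mice and 1755 CPM (1589 to 1934) in obese mice. Col5a2, a chain of type V collagen, was at 342 CPM in CR mice and 505 CPM in obese mice (log2 ratio -0.56, -0.87 to -0.24), and Col6a2 was at 530.2 CPM in CR mice and 878 CPM in obese mice (-0.72, -0.97 to -0.48). Col4a1, of the basement membrane that surrounds adipocytes, averaged 631 CPM (579 to 685) in CR mice and 1015 CPM (889.5 to 1152) in obese mice, with at least 1 UMI in 76 of 150 CR cells and 31 of 44 obese cells at equal depth, against 2.55% of CR and 0.157% of obese T cell barcodes. Nid1, the linker of laminin and type IV collagen, was at 426 CPM in CR mice and 668 CPM in obese mice. Only Lama4, a laminin chain, passed 2-fold among the collagen and basement membrane genes, with 51 UMIs in CR mice and 29 in obese mice (log2 ratio -1.05), and not without the highest cells (-0.91). Col1a1 did not keep its direction when the mitochondrial limit was dropped, where its log2 ratio was 0.10, nor did Col3a1 without cells with at least 5 leukocyte UMIs (0.061).

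Other matrix genes did not share that direction. Of 39 measured proteoglycans and elastic fibre genes, 20 were above 0 and 19 below, with a median of 0.05, and 3 were called higher and 1 lower. Over all genes, 2.51% were called higher and 2.81% lower. Mgp, an inhibitor of calcification, was at 2648 CPM in CR mice and 1639.7 CPM in obese mice, and the elastic fibre gene Efemp1 was at 425 CPM in CR mice and 205 CPM in obese mice (log2 ratio 1.03, 0.61 to 1.51). Fibronectin (Fn1) was at 684 CPM in CR mice and 1075 CPM in obese mice, and the large proteoglycan Vcan was lower in CR mice (log2 ratio -1.21, from 50 CR and 32 obese UMIs). Has1, which makes hyaluronan, had 161 UMIs in 37 CR cells and 5 UMIs in 3 obese cells, a log2 ratio of 2.82 (1.83 to 4.73). Of 37 measured genes of collagen processing and matrix turnover, the 2 called were both higher in CR mice and both encode proteases that cut proteoglycans. Adamts4 had 104 UMIs in 44 CR cells and 1 UMI in 1 obese cell, a log2 ratio of 3.72 (2.27 to 10.09), and Adamts1 was at 300.1 CPM in CR mice and 94.2 CPM in obese mice (1.62, 1.04 to 2.37). Matrix genes other than those of the rule, 89 in all, summed to 31113 CPM in CR mice and 34454 CPM in obese mice, a log2 ratio of -0.15 (-0.18 to -0.11) that was closer to 0 under TMM scaling (-0.04).

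Several inflammatory genes were among those with the largest ratios. Of the 82 genes higher in CR mice, the 10 with the largest log2 ratio were Slpi, Il6, Adamts4, Saa3, Has1, Fcgr4, Ier3, C7, Cxcl1 and Tagln. In 2 of them 1 cell held most of the CR UMIs, namely Slpi (240 of 251) and the acute phase gene Saa3 (65 of 99), and Tagln, a smooth muscle gene, had 27 of 76 in 1 cell. Fcgr4, a macrophage Fc receptor, had 50 UMIs in 36 CR cells with no more than 3 in any, and was at 56.4 CPM in CR mice and 4.28 CPM in obese mice, below the 180 CPM of CR and 77.3 CPM of obese T cell barcodes. The complement component C7 had 68 UMIs in 31 CR cells and 2 UMIs in 2 obese cells.

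Il6, the cytokine interleukin-6, lies on chromosome 5 at 30013114 to 30019981 of GRCm38 (plus strand). It had 278 UMIs in 46 of 150 CR cells and 3 UMIs in 2 of 44 obese cells, or 314 CPM (278 to 353) in CR mice and 12.8 CPM (2.65 to 37.5) in obese mice, a log2 ratio of 4.16 (3.05 to 6.90). The size depended on which cells were taken. It was 2.17 (1.64 to 2.96) when Dpp4 and Pi16 were read after thinning, 2.44 (1.96 to 3.27) over all fibroblasts and 2.99 without cells with at least 5 leukocyte UMIs. T cell barcodes were at 2.88 CPM in CR mice and 5.16 CPM in obese mice. At equal depth, Il6 was found in 25 of 150 CR cells (16.7%, 11.1 to 23.6) and in 0 of 44 obese cells, which allows a share with a UMI at this depth of up to 6.82%, against 0.232% of CR and 0.471% of obese T cell barcodes. Cxcl1, the neutrophil-attracting chemokine, lies further along the same chromosome at 90891241 to 90893115. It had 714 UMIs in 92 CR cells and 36 UMIs in 7 obese cells, or 806 CPM (748 to 867) in CR mice and 154 CPM (108 to 213) in obese mice, a log2 ratio of 2.35 (1.90 to 2.91). At equal depth it was found in 61 CR cells (40.7%, 32.7 to 49.0) and 3 obese cells (6.82%, 1.43 to 18.7), against 3.94% of CR and 3.61% of obese T cell barcodes. The monocyte chemokine Ccl7 averaged 1223 CPM (1151 to 1298) in CR mice and 492 CPM (406 to 591) in obese mice, but 1 CR cell held 333 of 1084 UMIs and 1 obese cell 57 of 115.

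Ccl2, its neighbour on chromosome 11, showed how far single cells set a level. It was at 845 CPM in CR mice and 689 CPM in obese mice (log2 ratio 0.29), yet 334 of 749 CR UMIs and 147 of 161 obese UMIs each lay in 1 cell, and the log2 ratio was 2.83 without them. That obese cell was also the one with 195 Fabp4 UMIs, and it held 57 Ccl7 and 45 Thbs1 UMIs. It carried 20 leukocyte list UMIs in 10283 and a matrix share of 3.41%. Ccl11, the eosinophil chemokine eotaxin, was at 1843 CPM in CR mice and 2183 CPM in obese mice, and the stromal chemokine Cxcl12 was at 906 CPM in CR mice and 728 CPM in obese mice. Il34, a ligand of the macrophage receptor Csf1r, was the 1 cytokine called lower (log2 ratio -1.26, from 18 CR and 13 obese UMIs). Il34 reached the 50 CPM of the filter only in obese mice, where its level was higher. The other ligand of Csf1r, Csf1, was at 108 CPM in CR mice and 188 CPM in obese mice. Of 14 measured chemokines and cytokines, 3 were called higher and 1 lower, beside 2.51% and 2.81% over all genes. In the list 9 were below 0 and the median was -0.10, so the ratios above belonged to a few genes and not to the list as a whole.

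A few genes that cytokine signalling induces were higher in CR mice as well. Of 19 measured NF-kB and acute phase genes, 4 were called higher and none lower, beside 2.51% and 2.81% over all genes. In the list 7 lay below 0 and the median was 0.10, beside -0.07 over all measured genes. Socs3, the feedback inhibitor of interleukin-6 signalling, averaged 855 CPM (795 to 918) in CR mice and 253 CPM (192 to 326) in obese mice, a log2 ratio of 1.74 (1.38 to 2.17), and at equal depth was found in 76 CR cells (50.7%) and 6 obese cells (13.6%), against 26.9% of CR and 15.1% of obese T cell barcodes. Tnfaip6, which modifies hyaluronan, averaged 600.2 CPM (550.3 to 653) in CR mice and 197 CPM (144 to 263) in obese mice, a log2 ratio of 1.58 (1.17 to 2.08), and T cell barcodes were at 6.48 CPM in CR mice and 0 in obese mice. Nfkbia, the inhibitor that NF-kB itself induces, was at 829 CPM in CR mice and 295 CPM in obese mice (1.47, 1.13 to 1.87). T cell barcodes held more of it, at 1469 CPM in CR mice and 979 CPM in obese mice. The 65 genes of both inflammatory lists summed to 11450 CPM (11228 to 11675) in CR mice and 8301 CPM (7936 to 8679) in obese mice, a log2 ratio of 0.46 (0.39 to 0.53). Other cells of the same libraries showed such a difference too. The chemokine and cytokine list had a log2 ratio of 0.36 in the fibroblasts, 0.79 in T cell barcodes and 0.39 in macrophage barcodes (at least 2 Csf1r UMIs and 1 Ptprc UMI). The NF-kB and acute phase list had one of 0.64 in the fibroblasts, 0.52 in T cell barcodes and 0.68 in macrophage barcodes, so the summed difference is not particular to the fibroblasts.

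These genes were found together in part of the CR cells. At equal depth, 17 of the 25 CR cells with an Il6 UMI (68.0%) also held Cxcl1, which was found in 40.7% of all CR cells, and 17 of them held Tnfaip6, found in 38.7%. Has1 was found in 8 of those 25 cells (32.0%) and in 11.3% of all. Fabp4 and Lpl were found in 21 of the 25 cells each (84.0%), against 78.7% and 82.0% of all CR cells. Some other pairs lay below the share of all CR cells. Socs3 was found in 8 of 17 cells with Has1 (47.1%, against 50.7%), and Ccl2 in 1 of 11 cells with Adamts4 (9.09%, against 16.0%). The share of all CR cells includes the cells with the first gene of a pair. These are shares of cells from 1 library with no test.

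The promoters of the genes with the largest inflammatory ratios were read from RefSeq (GRCm38.p6), from 250 bases before to 50 bases after each start, to show what the windows of genes that were higher together hold. The motif searched was GGGANNTTCC on both strands, a form of the sequence that NF-kB dimers bind, chosen after the levels were known. It occurred in 441 of 27025 genes with a promoter (1.63%), in 3 of 66 genes higher in CR mice (4.55%) and in 1 of 62 lower ones (1.61%). The 3 higher genes were Il6 (chr5:30012864-30013163, plus strand), Cxcl1 (chr5:90890995-90891294, plus strand) and Nfkbia (chr12:55492598-55492897, minus strand), printed below 5′ to 3′ with the match in capitals. In Cxcl1 the capitals cover a pair of overlapping matches.
Il6: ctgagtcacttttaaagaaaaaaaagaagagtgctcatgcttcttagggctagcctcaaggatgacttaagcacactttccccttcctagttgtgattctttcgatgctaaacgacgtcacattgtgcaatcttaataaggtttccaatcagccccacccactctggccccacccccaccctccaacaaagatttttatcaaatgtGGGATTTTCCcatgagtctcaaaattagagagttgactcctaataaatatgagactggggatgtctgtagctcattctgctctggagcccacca
Cxcl1: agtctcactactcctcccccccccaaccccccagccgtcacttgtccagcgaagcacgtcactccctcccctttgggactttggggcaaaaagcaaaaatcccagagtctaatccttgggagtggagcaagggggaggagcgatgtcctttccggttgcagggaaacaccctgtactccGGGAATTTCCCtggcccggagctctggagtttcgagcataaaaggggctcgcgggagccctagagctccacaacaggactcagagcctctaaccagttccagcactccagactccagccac
Nfkbia: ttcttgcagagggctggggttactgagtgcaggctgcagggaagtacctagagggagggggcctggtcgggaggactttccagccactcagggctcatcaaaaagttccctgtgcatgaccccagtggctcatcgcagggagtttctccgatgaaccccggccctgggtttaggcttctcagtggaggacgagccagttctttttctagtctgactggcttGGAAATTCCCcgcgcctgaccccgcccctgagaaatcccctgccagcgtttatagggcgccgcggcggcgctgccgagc
The matches began 44 bases before the start in Il6, 71 and 70 bases before it in Cxcl1 and 29 bases before it in Nfkbia. A match describes these letters and is neither a bound site nor a cause, and the windows of Socs3, Tnfaip6, Has1, Ier3 and Saa3 held none.

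**Figure D3:**
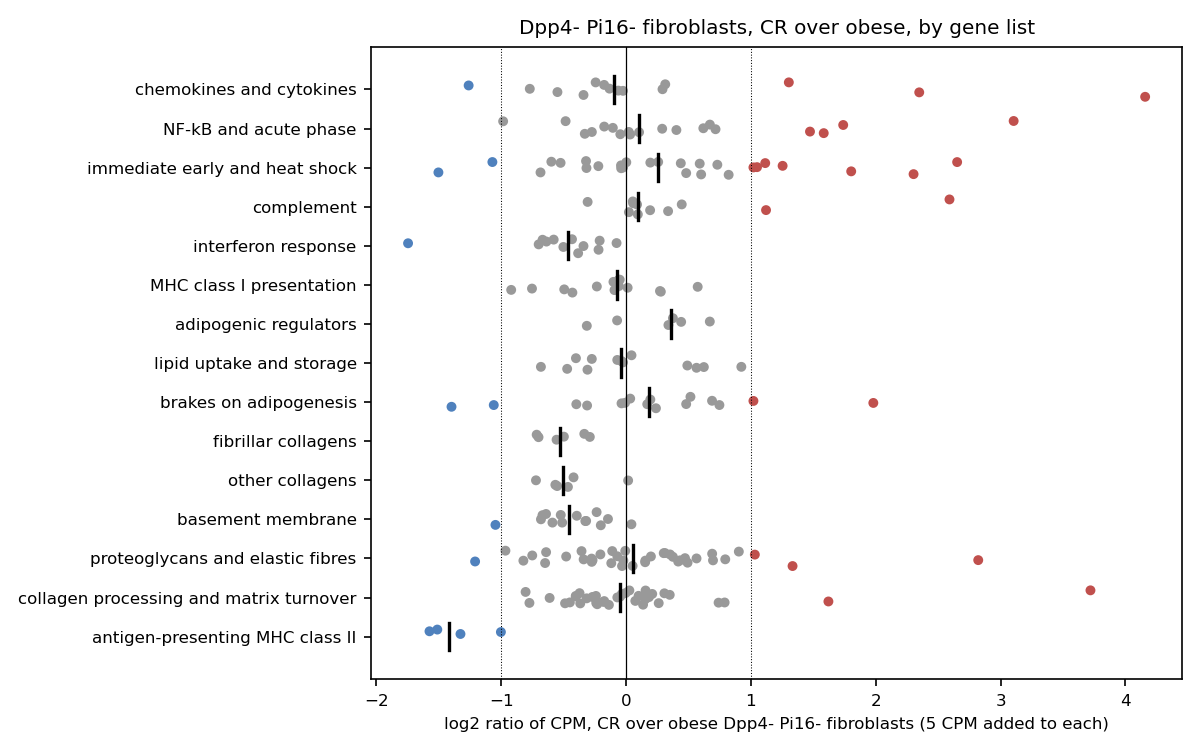
Log2 ratio of CPM, CR over obese Dpp4- Pi16- fibroblasts, for the measured genes of 15 lists. Each point is a gene, red where it was called higher in CR mice, blue where called lower and gray where not called, the black bar is the list's median, and the dotted lines mark 2-fold. The fibrillar collagens all lie below 0 (median -0.53), and the chemokines and cytokines have a median of -0.10 with Il6 at 4.16 and Cxcl1 at 2.35 far to the right.

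Several stress-induced genes were higher in CR mice, some of them in T cell barcodes too. Of 27 measured immediate early and heat shock genes, 7 were called higher in CR mice and 2 lower, with a median of 0.26. Over all genes, 2.51% were called higher and 2.81% lower. The transcription factor gene Junb was at 3602 CPM in CR mice and 1738 CPM in obese mice, and in T cell barcodes it was at 4557 CPM in CR mice and 2509 CPM in obese mice. Atf3 was at 252 CPM in CR mice and 68.5 CPM in obese mice (log2 ratio 1.80), while its T cell log2 ratio was -0.64. The heat shock chaperone Dnajb1 had a log2 ratio of 2.30 in fibroblasts and 1.05 in T cell barcodes. What part a shift common to a whole library had in these genes was not tested. Hspb1 was at 335 CPM in CR mice and 959 CPM in obese mice (log2 ratio -1.50), but 158 of 224 obese UMIs were in 1 cell, the one with the second lowest matrix share, which also held 52 of the 56 obese UMIs of Hmox1. Without the highest cells the log2 ratio was 0.08 for Hspb1 and 1.12 for Hmox1, so neither kept its direction.

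Interferon response genes had lower levels in CR mice with 1 of them past 2-fold, and genes of MHC class I presentation did not stand apart. All 12 measured interferon response genes were below 0, with a median of -0.47, beside 1857 of 3269 below 0 over all genes. Called lower was 1 of them, beside 2.81% over all genes. It was Iigp1, a GTPase induced by interferon gamma, at 46.3 CPM in CR mice and 167 CPM in obese mice (log2 ratio -1.75, -2.52 to -1.18). Iigp1 reached 50 CPM only in obese mice. Summed over the list, the log2 ratio was -0.30 in Dpp4- Pi16- fibroblasts and -0.03 in fibroblasts with a Dpp4 or Pi16 UMI. It was -0.03 in T cell barcodes and 0.23 in macrophage barcodes. Of 14 measured genes of MHC class I presentation none was called and 4 were above 0, and their median of -0.08 lay beside -0.07 over all measured genes. All 4 measured MHC class II genes were called lower, 1 of them also without the highest cells. The invariant chain gene Cd74 was at 582 CPM in CR mice and 1669.6 CPM in obese mice, and H2-Eb1 at 143 CPM in CR mice and 437 CPM in obese mice. T cell barcodes held more of both, with Cd74 at 1706 CPM in CR mice and 8471 CPM in obese mice and H2-Eb1 at 416 CPM in CR mice and 2053 CPM in obese mice, and a median cell held 5 UMIs of this list in CR mice and 9 in obese mice. The levels in fibroblasts were thus at or below those in a cell type that should lack these genes, and they are read as background. Ccl5 and Nkg7, which T cells themselves express, were among the 10 genes with the lowest ratios, and 34 of 43 and 8 of 14 of their obese UMIs were in 1 cell. The other 8 of those 10 were Hmox1, Stk17b, Upf1, Lars2, Tnpo1, Prkrir, Gimap6 and Celf1, with 12 to 56 obese UMIs each. Upf1, which directs decay of faulty transcripts, and Tnpo1, a nuclear import receptor, were spread over 10 and 11 obese cells.

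Few complement genes and hormone-responsive genes were called. Of 11 measured complement genes, 10 were above 0 with a median of 0.09, and 2 were called higher in CR mice, beside 2.51% over all genes. These were C7 (log2 ratio 2.59) and factor B (Cfb), which was at 71.1 CPM in CR mice and 30.0 CPM in obese mice (log2 ratio 1.12, 0.12 to 2.62). Complement C3 was at 1626 CPM in CR mice and 1563 CPM in obese mice. Of 15 measured genes of the glucocorticoid and fasting response, 1 was called, Gadd45g, at 586 CPM in CR mice and 257 CPM in obese mice, where 33 of 60 UMIs were in 1 cell. Of 10 measured genes of the insulin and IGF axis, Igfbp5 was called higher (log2 ratio 1.67, from 58 CR and 4 obese UMIs), while the growth factor gene Igf1 was at 239 CPM in CR mice and 167 CPM in obese mice. The endoplasmic reticulum chaperone Hspa5 was at 2412 CPM in CR mice and 1383 CPM in obese mice (log2 ratio 0.80, 0.63 to 0.98). Thy1, a surface marker of stromal cells, had a log2 ratio of -1.78 from 31 UMIs in CR mice and 31 in obese mice. That direction was not kept without cells with at least 5 leukocyte UMIs, where the log2 ratio of Thy1 was 0.12. Cd248, a stromal progenitor gene, had a log2 ratio of -1.31 from 77 UMIs in CR mice and 52 in obese mice.

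The Dpp4- Pi16- fibroblasts were then set beside the fibroblasts that met the rule but held a Dpp4 or Pi16 UMI, 113 cells in CR mice (median 5911 UMIs) and 48 in obese mice (median 6007.5). Since Dpp4 and Pi16 split cells of the same droplets, the ratios describe the split and carry no test, and a shallow cell is more likely to show neither gene. Of 2878 genes measured in both libraries, 11 (0.382%) were at least 2-fold higher in the Dpp4- Pi16- fibroblasts of both and 32 (1.11%) at least 2-fold lower, Dpp4 and Pi16 included by the rule.

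**Figure D4:**
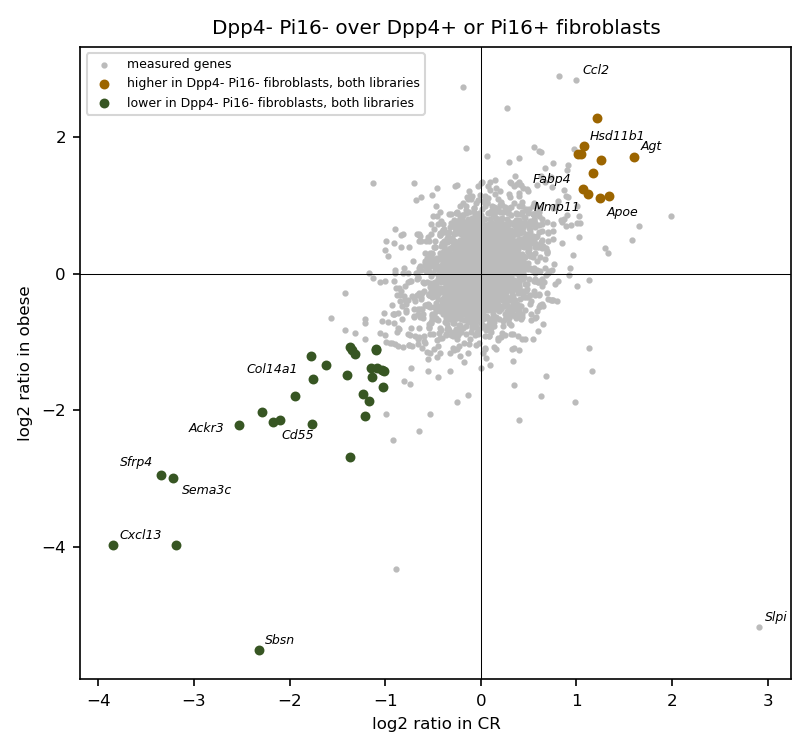
Log2 ratio of CPM, Dpp4- Pi16- over Dpp4+ or Pi16+ fibroblasts, with 5 CPM added to each side, in CR mice (horizontal axis) and obese mice (vertical axis). Each point is a gene, and Dpp4 and Pi16 are left out. Agt and Fabp4 lie above 1 on both axes, Cxcl13 and Sema3c lie below -2 on both, and Slpi lies at 2.91 in CR mice and -5.18 in obese mice. For Agt and Fabp4, 1 obese cell each held at least 25% of the gene's UMIs in Dpp4- Pi16- fibroblasts.

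The higher genes included lipid handling and secreted factors. Fabp4 was at 2109.7 CPM in Dpp4- Pi16- fibroblasts and 1005 CPM in the others in CR mice, and at 2166 CPM and 918 CPM in obese mice, with log2 ratios of 1.07 in CR mice and 1.23 in obese mice. The obese level of Fabp4 in Dpp4- Pi16- fibroblasts includes the 1 cell with 195 UMIs. Apoe had log2 ratios of 1.25 in CR mice and 1.11 in obese mice. Agt, which encodes angiotensinogen, had the largest ratio present in both libraries, at 181 CPM against 56.0 CPM in CR mice and 137 CPM against 38.4 CPM in obese mice. Hsd11b1, which reactivates glucocorticoid within fat, had log2 ratios of 1.08 in CR mice and 1.86 in obese mice. Mmp11, Mdk, Trf, Vtn, Nmb, Sept4 and Fbln7 made up the rest of the 11. For Agt, Mmp11, Trf and Vtn, 1 obese cell each also held at least 25% of the gene's UMIs in Dpp4- Pi16- fibroblasts. Ratios to the other fibroblasts were not computed without such cells. Of 12 measured genes of lipid uptake and storage, 3 were called higher, 8 were above 0 in both libraries and 2 were below 0 in both, with medians of 0.53 in CR mice and 0.40 in obese mice. Over all 2878 genes, 890 were above 0 in both and 826 below 0 in both, with medians of -0.020 in CR mice and 0.053 in obese mice.

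The lower genes included known genes of the progenitor. Sema3c, a secreted guidance factor, had log2 ratios of -3.21 in CR mice and -2.99 in obese mice. The B cell chemokine Cxcl13 had 4 UMIs in the CR and 1 UMI in the obese Dpp4- Pi16- fibroblasts, and ratios of -3.85 in CR mice and -3.97 in obese mice. Cd55, which shields cells from complement, had ratios of -2.17 in both. The WNT modulator Sfrp4, the chemokine scavenger Ackr3 and the skin gene Sbsn were lower as well. Of a list of 30 progenitor genes, 22 were measured in both libraries, all 22 were below 0 in both and 14 were at least 2-fold lower, beside 1.11% over all genes. Dpp4 and Pi16, which the choice of cells itself set at 0, are among both the 22 and the 14, and the other genes of that list are known to go with them, so nothing is read from these counts. Of 20 measured genes of a committed preadipocyte list, 16 were above 0 in both libraries (890 of 2878 over all genes). At least 2-fold higher in both were 3 of them (0.382% over all genes), and the medians were 0.49 in CR mice and 0.80 in obese mice. Committed cells are known by their contrast with the Dpp4 and Pi16 progenitor, so nothing is read from these counts either. This list also shares Apoe with the list of lipid uptake and storage, so their counts are not separate.

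The inflammatory genes were compared between conditions in the other fibroblasts too. In the Dpp4+ or Pi16+ fibroblasts the log2 ratio of CR over obese was 1.29 for Il6, 1.48 for Cxcl1, 1.30 for Socs3, 2.09 for Tnfaip6, 2.99 for Adamts4 and 2.35 for Has1, each of the same sign as in Dpp4- Pi16- fibroblasts. Il6 was at 156 CPM in CR mice and 60.8 CPM in obese mice in those cells. Among matrix genes, the ratio there was -0.56 for Col1a1 and -0.33 for Col4a1, and for the adipogenic genes it was 0.82 for Lpl and 0.13 for Fabp4. Both kinds of fibroblast came from the same library of each condition, so they do not replicate each other.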

How the data were processed

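Per the labels and the study's methods, the authors sorted live CD45+ cells, prepared 10x Chromium 3′ libraries and deposited, for each of the 2 libraries, a matrix of raw UMI counts per gene and barcode. The submitters' processing notes name Cell Ranger, Seurat and mm10. The rule's cells, gene lists and comparisons were chosen with earlier results of these data known. UMIs were summed over the cells of a library and given as CPM of the sum. A gene was called when it had at least 20 UMIs over both libraries and 50 CPM in one, a log2 ratio with 5 CPM added of at least 1 in size, and an exact 95% counting interval of the ratio, computed without the added CPM, that excluded 0. With 1 library per condition there was no test, p-value or SD. The computation of the calls was checked on simulated counts. Library depth was 19696476 UMIs in 3562 barcodes for CR and 42948242 UMIs in 5795 barcodes for obese. Cells were thinned to 1500 UMIs to compare shares of cells. T cell barcodes held at least 2 UMIs of Cd3d, Cd3e and Cd3g together and served as the measure of free RNA for genes that T cells do not express. Doublets were not called, and the limits on Ptprc, Csf1r and Cldn5 and the UMIs of other cell types' lists stand in their place.

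Named genes were those of the rule and of the question (Pparg, Fabp4, Lpl), the 10 called genes with the highest and the 10 with the lowest ratio, up to 4 genes per list by ratio and, for the adipogenic, matrix and inflammatory lists, by level, and the 10 with the largest difference from the other fibroblasts in either direction. Cd36, Fn1, C3, Junb, Csf1, Lep, Cfd and Fbln7 were named after their values were seen. Of the 35 lists, 11 genes were not found under their symbol. Alternatives covered the limits of the rule, scaling, thinning, the added CPM, the filters and cells with leukocyte transcripts. Coordinates come from GENCODE on GRCm38 and promoters from RefSeq on GRCm38.p6. Python 3.11.15, numpy 2.4.6, scipy 1.17.1, pandas 2.3.3 and matplotlib 3.10.9 were used.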

Additional observations from a re-analysis of the deposited data

Results flagged for a closer look

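For 2 genes with at least a 2-fold difference the ratio of CR over obese had opposite signs in the 2 kinds of fibroblast, and with 1 library per condition this difference was not tested. The spread of UMIs over single cells is given here for Dpp4- Pi16- fibroblasts only. The log2 ratio of Slpi, a secreted protease inhibitor, was 4.41 in Dpp4- Pi16- fibroblasts and -3.68 in Dpp4+ or Pi16+ fibroblasts. The ratio of 4.41 came from 251 CR UMIs, of which 240 were in 1 cell, and 2 obese UMIs. In Dpp4+ or Pi16+ fibroblasts the mesothelial list, which includes Slpi, was at 307 CPM in CR mice and 1132 CPM in obese mice. The log2 ratio of Sfrp2, a WNT modulator, was 1.98 in Dpp4- Pi16- fibroblasts, from 58 CR UMIs of which 11 were in 1 cell and 3 obese UMIs, and -1.45 in Dpp4+ or Pi16+ fibroblasts.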

How the results depend on the processing

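The signs of the summed adipogenic, matrix and inflammatory ratios held under every alternative that gave one. No alternative left Apoe out of the adipogenic sum, where it made up most of the difference. Genes higher and lower in CR mice, against 82 and 92, numbered 50 and 35 with 20 CPM added, 38 and 51 when Dpp4 and Pi16 were read after thinning, 37 and 14 with at least 100 UMIs, 44 and 30 over all fibroblasts, 53 and 47 after thinning every cell, and 165 and 255 with no filter. The lower genes numbered 58 (beside 111 higher) under TMM factors, 36 (beside 112) without each gene's highest cell, and 42 without cells with at least 5 leukocyte UMIs, which left 29 CR and 11 obese cells. Of the 82 and 92 genes, those still called were 16 and 4 in that last setting, 24 and 15 after thinning every cell, 32 and 28 with Dpp4 and Pi16 read after thinning, and 32 and 16 over all fibroblasts. The adipogenic log2 ratio (0.34) was 0.45 under TMM, 0.42 over all fibroblasts, 0.54 without highest cells and 0.42 without cells rich in other types' markers. The inflammatory ratio (0.46) was 0.54 with Dpp4 and Pi16 read after thinning, 0.57 under TMM, 0.60 over all fibroblasts, 0.57 after thinning and 0.63 without highest cells. The matrix ratio (-0.15) was -0.038 under TMM, -0.19 at a matrix share of 1%, -0.10 after thinning, -0.058 without highest cells, -0.10 as a mean over cells and -0.091 with no mitochondrial limit. The cells' shares of kept barcodes were 6.43% in CR and 1.22% in obese mice with Dpp4 and Pi16 read after thinning, and 8.72% and 1.70% for all fibroblasts. Beside Fabp4 (8 of 15 alternatives, -0.10 to 0.55) and Pparg (6 of 15, -0.80 to 1.87), whose ratios lay near 0, signs changed for Hmox1 (1.18 at a matrix share of 1%, 0.75 without leukocyte-marked cells, 1.12 without highest cells), Hspb1 (0.15, 0.86 and 0.081 under the same settings), Slpi (-0.79 with Dpp4 and Pi16 read after thinning and -0.72 over all fibroblasts), Col1a1 (0.10 with no mitochondrial limit), and Col3a1 (0.061) and Thy1 (0.12) without leukocyte-marked cells. Over single named genes and alternatives, 333 of 435 values stayed within the counting interval, 102 left it and 25 changed sign. Il6 ran from 2.17 to 5.67, Cxcl1 from 1.88 to 3.29, Has1 from 1.71 to 4.74, Adamts4 from 2.50 to 4.49, Socs3 from 1.19 to 2.56 and Tnfaip6 from 1.52 to 3.47. Leaving out the highest cells and the cells rich in other types' markers was chosen after the data were seen, and where no removed cell or construction shows it, the cause was not tested. No paired analysis was possible because each condition had 1 library. The 233585 UMIs of 44 obese cells limit what can be seen: at this depth a gene with 0 obese UMIs could be at up to 12.8 CPM (3 counts).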
